A study of Homo sapiens with 134 samples.

Results

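The genes described here build the machinery that copies DNA: 51 genes whose products mark replication origins, load and start the helicase, or work at the moving fork. They were chosen by gene symbol, and each was read from 1 probe of an Illumina HumanWG-6 V2 BeadChip, the one with the highest mean log2 signal over all arrays. All 51 had a probe, among 19381 genes with a named probe on the array, and 50 of them lay among the 24350 probes bright enough to be tested. The exception was DBF4, the regulatory subunit of the CDC7 kinase, whose mean log2 signal of 6.16 was under the filter of 6.22. The cells were HBEC3KT, human bronchial epithelial cells that carry CDK4 and hTERT and therefore divide without limit in culture, so every group described here shares both genes. Irradiated cells had received Fe ions at 0.5 or 1 Gy, Si ions at 0.5 or 1 Gy, or γ-rays at 1 or 3 Gy, and were collected at 1, 4, 12 and 24 h. The γ-ray arm is called x-ray in the array labels and γ-rays in the study's methods. Mock-irradiated cells were collected at the same times, and reference cells at 0 h. The replicate is a run, the exposures to 1 radiation type during 1 campaign. The 9 runs were Fe in campaigns 08A, 08C and 09C, Si in 09A, 09B and 09C, γ-rays in 08C, 09A and 09C, so that n is 3 for each radiation type and 9 for all of them. Every p-value of the main fits measures the spread between these runs of 1 cell line, which came from 5 campaigns.

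A human cell licenses its origins before it copies its DNA. The origin recognition complex (ORC) binds the origin, and CDC6 and CDT1 load onto it the ring of MCM2 to MCM7, which is the inactive core of the replicative helicase. In S phase, kinases, CDC45 and the GINS complex turn the ring into a running helicase, and polymerases, their sliding clamp and the proteins that mature Okazaki fragments follow it. Many of these genes are known targets of the E2F transcription factors, which act at the entry into S phase, so their transcripts are commonly read as a sign of proliferation. CDT1 protein is known to be degraded in S phase and after DNA damage, a step that transcript arrays do not measure.

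Promoter sequences are shown for CDT1, the member whose signal differed most between irradiated and mock cells, and for 3 members with large falls late in the culture, GINS2, MCM3 and POLE2. Capitals mark the words TTTGGCGC, TTTCGCGC, TTTCCCGC or TTTGCCGC, the core of the E2F motif, on either strand. These words differ from each other only in their middle bases, and a match is a description of letters, not a bound site or a cause. The sequences run 5′ to 3′ on the strand of the gene and come from RefSeq on GRCh38.p14. The windows of CDT1 (chr16:88803639-88803838, plus strand), GINS2 (chr16:85688905-85689104, minus strand) and POLE2 (chr14:49688165-49688364, minus strand) hold 200 bases, from 150 before the annotated start to 50 after it. That of MCM3 (chr6:52284693-52284992, minus strand) holds 300 bases, from 250 before to 50 after.
CDT1: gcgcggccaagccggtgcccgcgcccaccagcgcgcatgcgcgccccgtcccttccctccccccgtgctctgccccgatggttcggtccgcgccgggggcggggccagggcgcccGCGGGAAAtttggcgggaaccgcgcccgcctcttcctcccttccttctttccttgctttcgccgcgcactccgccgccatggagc
GINS2: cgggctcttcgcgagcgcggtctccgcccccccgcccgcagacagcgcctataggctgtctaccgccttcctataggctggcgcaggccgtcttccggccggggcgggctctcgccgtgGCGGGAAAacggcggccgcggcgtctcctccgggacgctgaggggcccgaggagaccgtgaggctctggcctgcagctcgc
MCM3: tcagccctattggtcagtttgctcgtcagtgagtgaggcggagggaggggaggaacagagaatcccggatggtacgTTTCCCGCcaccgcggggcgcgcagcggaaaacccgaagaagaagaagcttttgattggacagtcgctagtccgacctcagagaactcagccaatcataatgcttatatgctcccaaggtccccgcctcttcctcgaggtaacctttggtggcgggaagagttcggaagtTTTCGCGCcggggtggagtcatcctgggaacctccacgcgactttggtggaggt
POLE2: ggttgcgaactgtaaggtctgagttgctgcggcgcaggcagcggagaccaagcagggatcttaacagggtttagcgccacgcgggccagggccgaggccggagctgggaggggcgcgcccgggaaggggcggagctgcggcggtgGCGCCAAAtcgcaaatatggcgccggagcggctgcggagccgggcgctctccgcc
The match begins 35 bases before the start in CDT1, 31 in GINS2 and 5 in POLE2, and MCM3 holds matches at 174 and 4 bases before it. Among the 44 members with a promoter in the table, 19 (43.2%) held a word in the 300-base window of the first promoter listed for the gene. Read in the same way, 908 (3.33%) of all 27305 genes held one, and so did 1164 (3.31%) of all 35116 promoters of that length. Of the 34 members with a promoter that fell in mock cells between 12 and 24 h, 16 (47.1%) held one. FEN1 and MCM10, which had the largest of those falls, held none of these letters in the window.

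The 134 arrays lay on 35 chips and, with technical replicates averaged, gave 71 irradiated, 36 mock and 9 reference samples. Their median raw bead signal was 46.2 to 104.1 in irradiated, 45.8 to 102.2 in mock and 51.4 to 115.8 in reference cells. CDKN1A, a p53 target that rises in irradiated cells, was higher at 4 h in 9 of 9 runs, with a log2 ratio to mock of 0.62 ± 0.07 (SD, n = 9, adjusted p = 4.2e-09). Of 10 markers of airway basal epithelium, 8 had a probe and all 8 passed the filter, with mean log2 signals of 7.30 (CDH1) to 13.1 (KRT5 and LAMB3). Of the markers of other cell types, 2 of 6 of fibroblasts (5.89 to 6.40), 2 of 4 of endothelium (up to 6.64) and 4 of 6 of leukocytes (6.13 to 10.8, with 5 of the 6 on the array) passed it. Among the leukocyte markers, CD68 (10.8) and CD14 (8.04) were well above the filter, and PTPRC, LYZ and CD3E lay near it at 6.37, 6.32 and 6.13.

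The first question was how these genes moved in cells that were never irradiated. In mock cells the replication genes were near their 0 h level at 1 h, were higher at 12 h in most runs and dropped together between 12 and 24 h. At 24 h 40 of 50 members were called lower than at 12 h (adjusted p under 0.05), where 7.03% of all probes tested were called lower, and no member was called higher. The calls given here and by role below follow quantile normalization: with arrays scaled by their median, 9 members and 0.333% of all probes were called lower, at a member median of -0.67. The median log2 difference of the members was -0.63, and 48 of 50 differences were below 0. For all probes tested the median was 0.00, where quantile normalization holds it near 0. The fall was seen in every run. Within the 9 runs the median of the members' log2 differences was -1.15 to -0.30, with a mean of -0.64 ± 0.31 (SD, n = 9). In bulk RNA, fewer cells in S phase and less of each transcript per cell cannot be told apart.

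**Figure D1:**
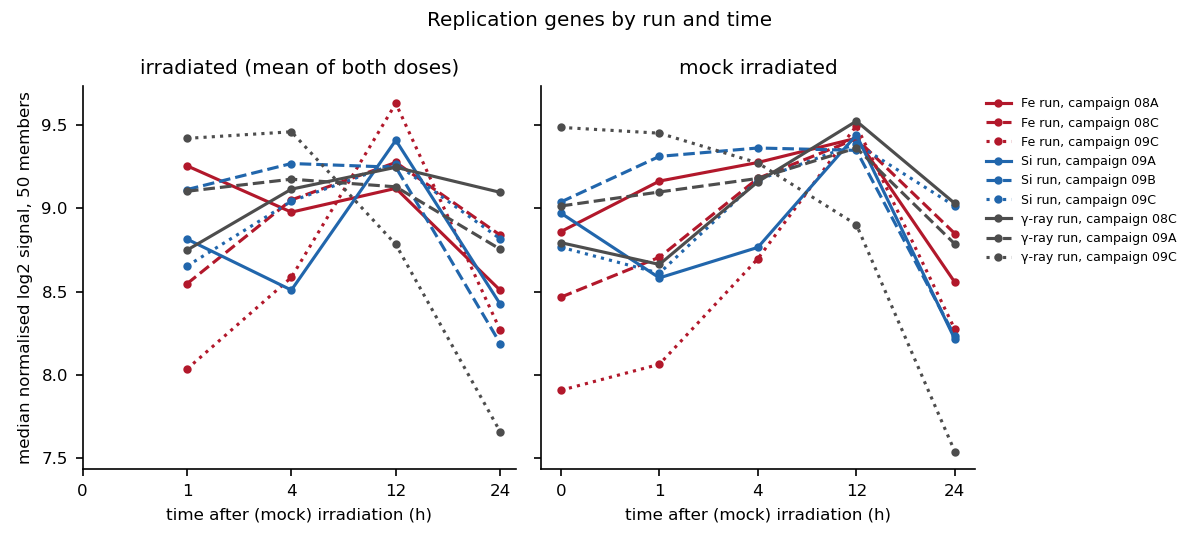
Median log2 signal of the 50 replication genes past the filter (vertical axis) by time in h (horizontal axis, times evenly spaced) in irradiated cells (left, means of both doses) and in mock cells (right, with the 0 h reference), 1 line per run, coloured by radiation type. For Fe run 08A at 12 h the irradiated point is 1 Gy alone. In both panels all 9 lines go down between 12 and 24 h, and γ-ray run 09C ends lowest, at 7.54 in mock cells.

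The helicase core fell as a whole: all 6 MCM genes were called lower at 24 h, with a median log2 difference of -1.04. The log2 signal of MCM2 was 7.52, 8.51 and 9.52 (lowest, median and highest of 9 runs) at 24 h, against 9.32, 9.61 and 9.95 at 12 h, a difference of -1.08 (SE 0.23, adjusted p = 0.0026). MCM3 had 7.45, 8.98 and 10.18 at 24 h, against 9.57, 10.22 and 10.49 at 12 h, a difference of -1.12 (SE 0.25, adjusted p = 0.0031). The ranges of both overlap between the times, but within runs MCM3 was lower at 24 h in 9 of 9 and MCM2 in 8 of 9. MCM4 differed by -1.07 (adjusted p = 0.0097), MCM7 by -1.0003 (0.0025), MCM5 by -0.93 (0.0052) and MCM6 by -0.87 (0.0051). A second MCM7 probe gave -1.17, whereas another, dim one with a mean log2 signal of 6.59, gave -0.02.

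Both loaders and geminin, the inhibitor of CDT1, were called lower as well. CDT1 had a log2 signal of 8.37, 9.49 and 10.09 at 24 h, against 9.04, 10.15 and 10.56 at 12 h, a difference of -0.63 (SE 0.15, adjusted p = 0.0057) with 9 of 9 runs lower. CDC6 differed by -0.50 (adjusted p = 0.0010) and GMNN, which encodes geminin, by -0.62 (0.0098). CDT1, like GINS3 and POLE3, had its highest median of the 9 runs at 4 h (10.19, against 10.15 at 12 h). MCM2, MCM4 and MCM7 had theirs at 12 h, but MCM6 of the same helicase core peaked at 4 h (8.00, against 7.91 at 12 h).

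The origin recognition complex split into members that fell and members that stayed near their level. ORC6 differed by -0.72 (adjusted p = 0.0031), ORC1 by -0.54 (0.040) and ORC5 by -0.29 (0.021). ORC2, ORC3 and ORC4 differed by 0.04, -0.05 and -0.15, with adjusted p of 0.79, 0.84 and 0.071. The log2 signal of ORC2 had a range over runs of 7.93 to 8.81 at 24 h, against 8.03 to 8.70 at 12 h. Differences between members were not tested.

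All 8 members that activate the helicase and passed the filter were called lower, with a median of -0.85. MCM10, which is needed to start the assembled helicase, had a log2 signal of 6.13, 8.02 and 8.97 at 24 h, against 8.40, 9.59 and 9.93 at 12 h, a difference of -1.58 (SE 0.31, adjusted p = 0.0014). CDC45 had 6.39, 8.07 and 8.51 at 24 h, against 8.26, 9.02 and 9.16 at 12 h, a difference of -1.04 (SE 0.24, adjusted p = 0.0037). Both were lower in 9 of 9 runs, and their ranges overlap only at the ends. Within the GINS complex the differences were -1.13 for GINS2 (adjusted p = 0.0036), -0.96 for GINS3 (0.0016), -0.55 for GINS4 (0.041) and -0.32 for GINS1 (0.0058), the dimmest of them. CDC7, the kinase that phosphorylates the MCM ring, differed by -0.75 (0.0049), and TOPBP1, a scaffold in origin firing, by -0.65 (0.0053).

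Among the polymerases, the catalytic subunit of polymerase alpha and its partners went apart. POLA1, that subunit, differed by 0.02 (adjusted p = 0.93), whereas POLA2, its accessory subunit, differed by -0.999 (0.0053) and the primase genes PRIM1 and PRIM2 by -0.51 (0.0073) and -0.45 (0.022). In polymerase epsilon all 3 members were called, while POLE4, a further subunit, was counted with the other replication factors. POLE2 had a log2 signal of 6.76, 8.38 and 9.21 at 24 h, against 8.75, 9.49 and 9.71 at 12 h, a difference of -1.10 (SE 0.23, adjusted p = 0.0021). POLE, the catalytic subunit, differed by -0.76 (0.0030) and POLE3, a histone-fold subunit, by -0.57 (0.0044). In polymerase delta POLD3 was called (-0.65, adjusted p = 0.0018), while POLD1, the catalytic subunit, differed by -0.39 (0.12) and POLD2 by -0.11 (0.32).

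The clamp PCNA had a log2 signal of 10.51, 12.06 and 12.34 at 24 h, against 12.32, 12.66 and 13.08 at 12 h, a difference of -0.88 (SE 0.20, adjusted p = 0.0040). Of the clamp loader, RFC3, RFC2 and RFC5 differed by -0.86, -0.80 and -0.80 and RFC4 by -0.51, all called, and RFC1, the large subunit, by -0.05 (adjusted p = 0.70). RPA2, a subunit of the single-strand binding protein, had the smallest adjusted p of the 50 members, with a difference of -0.70 (SE 0.12, adjusted p = 6.5e-04). RPA1 differed by -0.36 (0.0068) and RPA3 by -0.18 (0.38).

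FEN1, the nuclease that trims the flap of an Okazaki fragment, had the lowest log2 difference of all 24350 probes tested. Its log2 signal was 6.52, 8.83 and 9.77 at 24 h, against 9.21, 10.26 and 10.71 at 12 h, a difference of -1.61 (SE 0.33, adjusted p = 0.0019), lower in 9 of 9 runs. LIG1, the ligase that seals the fragments, differed by -0.29 (0.30) and RNASEH2A, a ribonuclease H2 subunit, by -0.40 (0.057). All 5 genes of fork protection were called: DONSON by -0.75 (0.0027), TIMELESS by -0.63 (0.0047), TIPIN, the partner of TIMELESS, by -0.59 (0.0083), WDHD1 by -0.58 (0.014) and CLSPN, the checkpoint mediator claspin, by -0.33 (0.0027).

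**Figure D2:**
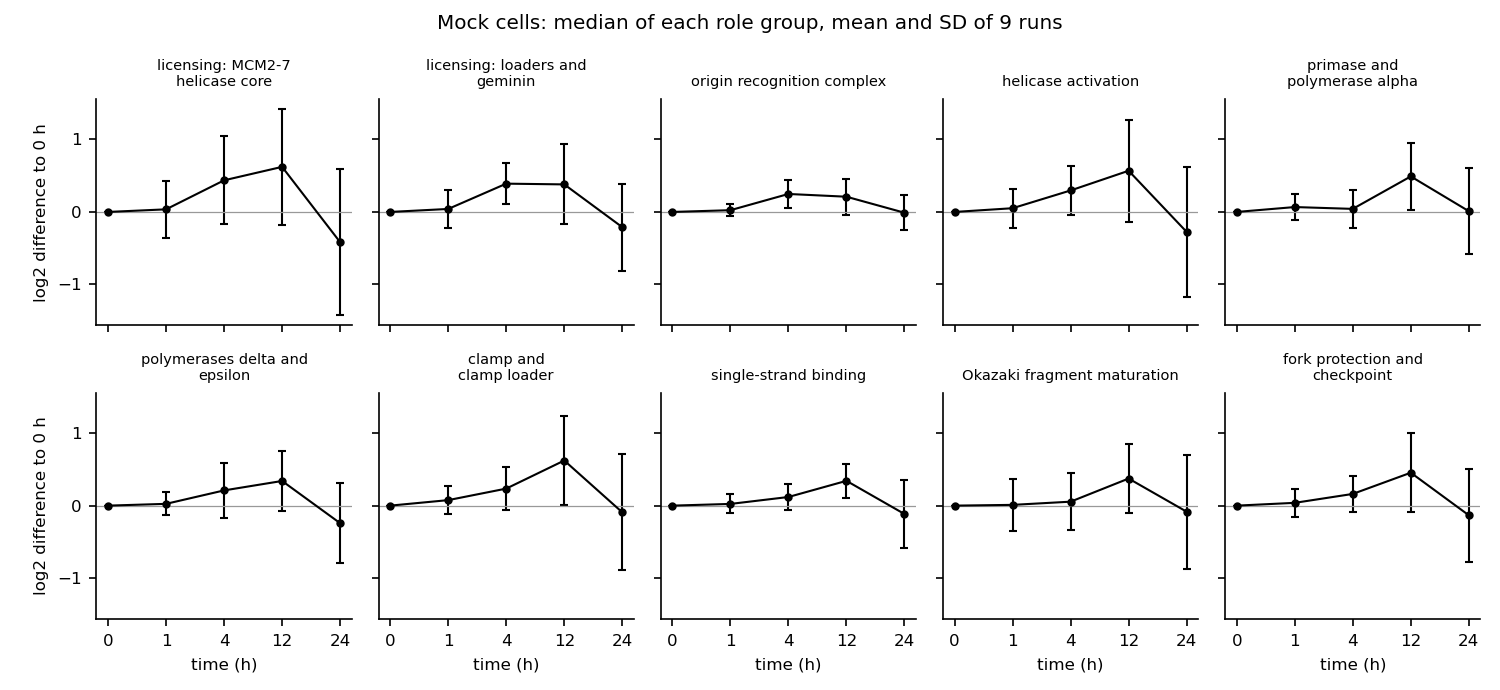
Log2 difference from the 0 h reference (vertical axis) in mock cells by time in h (horizontal axis, times evenly spaced), as the median of each role group, 1 panel per role, with points for the mean of 9 runs and bars for the SD. The MCM core averaged 0.62 at 12 h and -0.42 at 24 h, the origin recognition complex 0.21 and -0.01, and the bars are widest at 24 h for the MCM core.

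The rise before that fall was smaller and less sure. Between 1 and 4 h the members had a median log2 difference of 0.18, with 40 of 50 above 0, and 5 were called higher where 3.65% of all probes were. These were MCM10 at 1.06 (SE 0.31, adjusted p = 0.031), ORC6 at 0.55 (0.031), POLE3 at 0.45 (0.037), RPA2 at 0.40 (0.044) and ORC5 at 0.29 (0.032). Between 4 and 12 h the median was 0.20, with 38 of 50 above 0, and 3 were called higher where 2.96% of all probes were: TIMELESS at 0.52 (0.026), RFC4 at 0.48 (0.049) and PRIM1 at 0.46 (0.024). The members called in the earlier and in the later interval were different genes, but no test compared the intervals. CDC45, POLA2 and POLD1 differed by 0.72, 0.75 and 0.52 between 4 and 12 h with adjusted p of 0.067, 0.058 and 0.0502. These calls changed with the set of runs that entered. Without any one of Fe 08C, Si 09A, Si 09C or γ 09A no member was called between 1 and 4 h, and without any one of Fe 09C, Si 09B or γ 08C only 1 was, whereas 9 were without γ 09C. Between 4 and 12 h none was called without any one of Fe 08C, Fe 09C, Si 09A, Si 09C or γ 08C, 1 without γ 09A and 14 without γ 09C. The share of all probes called was not counted without a run, so whether these changes were particular to the members was not tested.

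**Figure D3:**
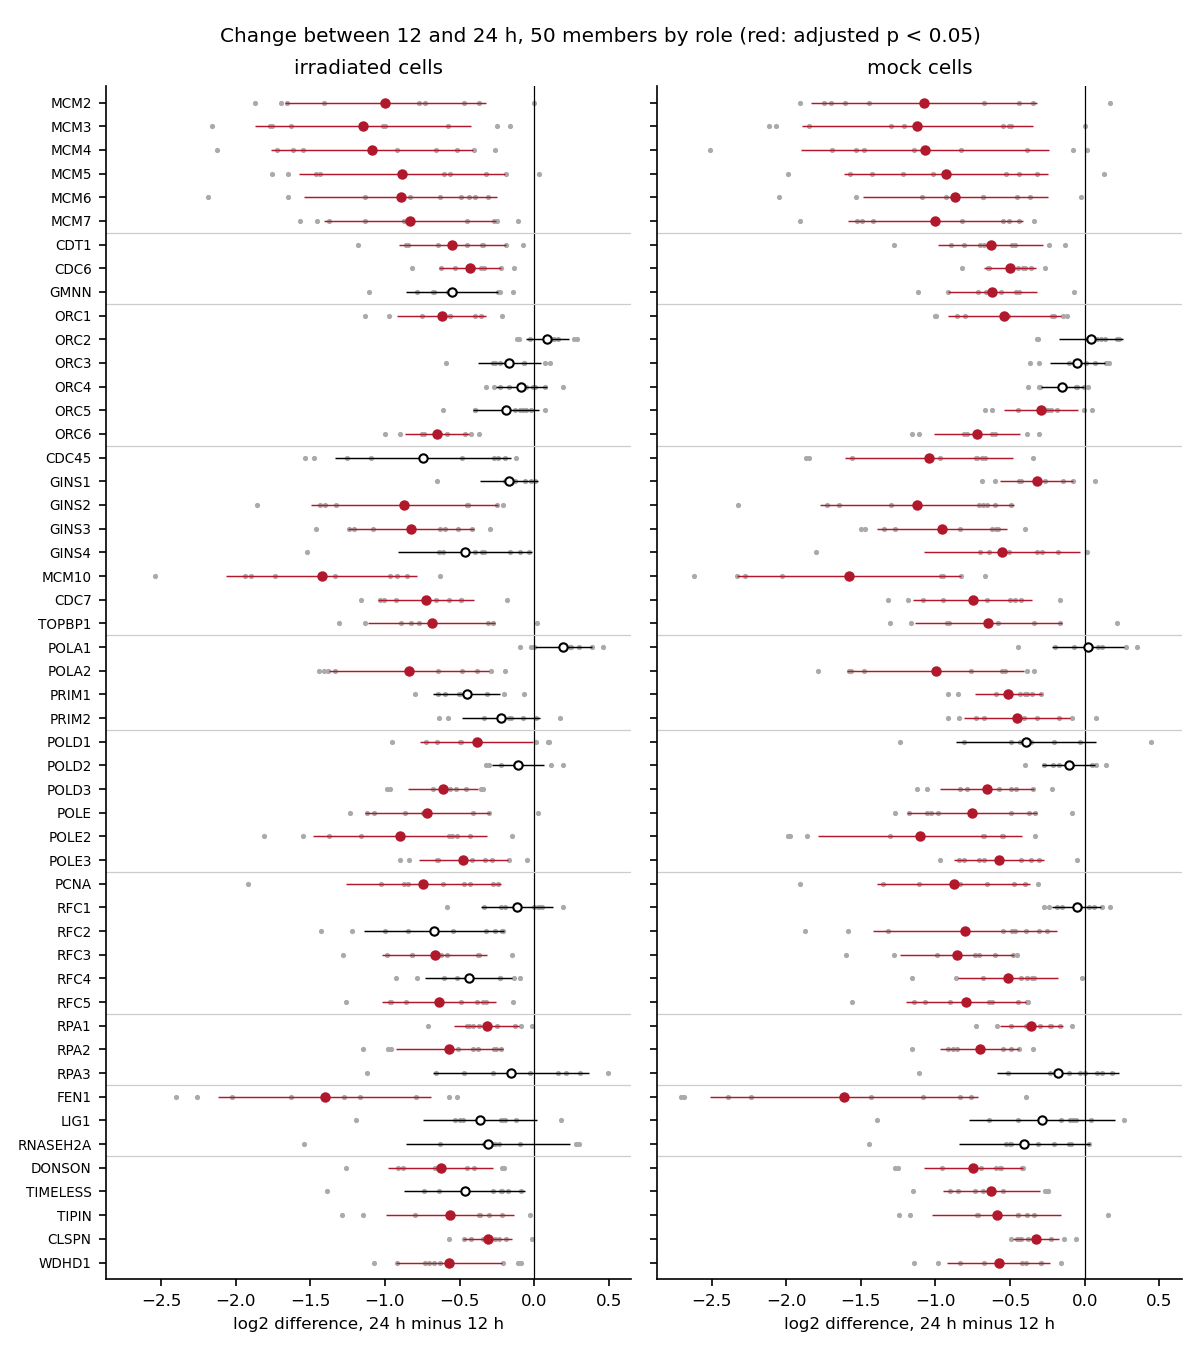
Log2 difference, 24 h minus 12 h (horizontal axis), of the 50 replication genes past the filter, grouped by role, in irradiated cells (left) and mock cells (right): small points are the 9 runs, large points their means, bars the SD, and red marks an adjusted p under 0.05. FEN1 and MCM10 lie furthest to the left in both panels, and ORC2, ORC3, POLA1 and RFC1 lie near 0.

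The runs did not share a starting level. At 0 h the median log2 signal of the members was 9.49 in the γ-ray run 09C, the highest of the runs, and 7.91 in the Fe run 09C, the lowest. In γ-ray run 09C this median already declined after 1 h. It was 9.45 at 1 h, 9.27 at 4 h and 8.90 at 12 h, and it ended at 7.54 at 24 h. No member was called between 24 and 1 h in mock cells (1.71% of probes were called lower), where the median difference of the members had a range over runs of -1.54 to 0.35. Between 1 and 0 h no member was called either, where 0.489% of probes were called.

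The next question was whether irradiated cells followed the same course. They did so in direction: in irradiated cells 31 of 50 members were called lower at 24 than at 12 h (5.84% of probes called lower), and the median log2 difference was -0.57. Within runs the median of the members' log2 differences was below 0 in all 9, at -0.94 to -0.20. Fe run 08A entered at 12 h with its 1 Gy sample alone. Without the Si run 09A the count of called members was 16, the lowest of the 9 left-out runs, and the share of all probes was not counted there. MCM10 differed by -1.42 (adjusted p = 0.0048), FEN1 by -1.40 (0.0056) and MCM3 by -1.15 (0.0061). The direct test of the response at 24 minus 12 h called no probe in either direction (0% of probes) and no member. At an unadjusted p under 0.05, 8 of 50 members and 1231 of all 24350 probes passed. Of the members, CDC45 was furthest from 0, at 0.30 (adjusted p = 0.78). ORC5, ORC6 and POLE3 were called higher between 1 and 4 h in irradiated cells (4.05% of probes), and POLD1 and RPA1 between 4 and 12 h (3.68%).

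Genes next to the members in the cell cycle were read from lists of the same kind, each with 1 probe per gene. Of 34 genes listed as other replication factors, 31 passed the filter. That list also holds genes with other roles, such as GTSE1 and MCM3AP. In mock cells 18 of the 31 were called lower and 1 higher at 24 than at 12 h, where 7.03% and 5.93% of all probes tested were, with a median log2 difference of -0.44. Of 15 mitotic genes, such as CCNB1 and AURKA, none was called at that step (median -0.14). Their log2 differences were above 0 for all 15 at 12 against 4 h (median 0.60, 2 called higher, as were 2.96% of all probes) and for all 15 at 24 against 1 h (median 0.23, none called). Of the 8 markers of airway basal epithelium, 3 were called higher at 24 than at 12 h in mock cells (median 0.34), where 5.93% of all probes tested were, and 7 of 8 had a log2 ratio above 0 in irradiated against mock cells at 12 h (median 0.11, none called). At that time 25 of 31 genes listed as other replication factors and 14 of 15 mitotic genes were below 0, with medians of -0.07 and -0.09 and no call. The part of cell number, cell-cycle phase or differentiation in the values of the replication genes was not tested.

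The central comparison of the design set irradiated cells against mock cells of the same run and time. At 4 h CDT1 was the single member called, and it was lower, where 0.0164% of probes (4 of 24350) were called lower and 0.0370% higher. Its log2 signal was 9.14, 9.61 and 10.38 (lowest, median and highest of 9 runs, means of both doses) in irradiated cells, against 9.71, 10.19 and 10.79 in mock cells. The 2 ranges overlap, but within runs irradiated cells were lower in 8 of 9, and γ-ray run 08C was the exception at 0.13. The log2 ratio was -0.41 ± 0.26 (SD, n = 9; SE 0.07, adjusted p = 0.0024). It stayed called without any single run, with ratios of -0.47 to -0.37 and adjusted p of 4.3e-04 to 0.0499. It was not called when arrays were scaled by their median in place of quantiles (-0.47, adjusted p = 1.00), with the chip as a random block (-0.42, adjusted p = 1.00), with the robust prior (adjusted p = 0.077), or at the lower dose alone (-0.27, adjusted p = 0.45). Mock and irradiated samples lay on the same chip in 13 of the 36 sets of a run and time, among them at 4 h Fe 08C, with a CDT1 value of -0.41, and γ 08C, with one of -0.0014 for its sample on that chip.

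By radiation type the log2 ratio of CDT1 at 4 h was -0.59 after Fe ions, -0.44 after Si ions and -0.20 after γ-rays, none of which was called (adjusted p = 0.065, 0.61 and 1.00). Split by dose, it was -0.79 after 1 Gy and -0.39 after 0.5 Gy of Fe ions, -0.58 after 1 Gy and -0.30 after 0.5 Gy of Si ions, and -0.27 after 3 Gy and -0.13 after 1 Gy of γ-rays. The higher dose had the lower value in 8 of 9 runs, and Si run 09B was the exception. The doses differed by -0.40, -0.28 and -0.13, and none of these differences was called. The test of a difference between radiation types in the limma fit gave an adjusted p of 0.93. At 1 h its log2 ratio was -0.02 (adjusted p = 1.00), below 0 in all 3 Fe runs (mean -0.14) and in 2 of 3 Si runs, and above 0 in all 3 γ-ray runs (mean 0.16), and the test of a difference between types gave an adjusted p of 1.00. Its log2 ratio at 12 h was -0.12 (adjusted p = 0.63) and at 24 h -0.04 (0.97).

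**Figure D4:**
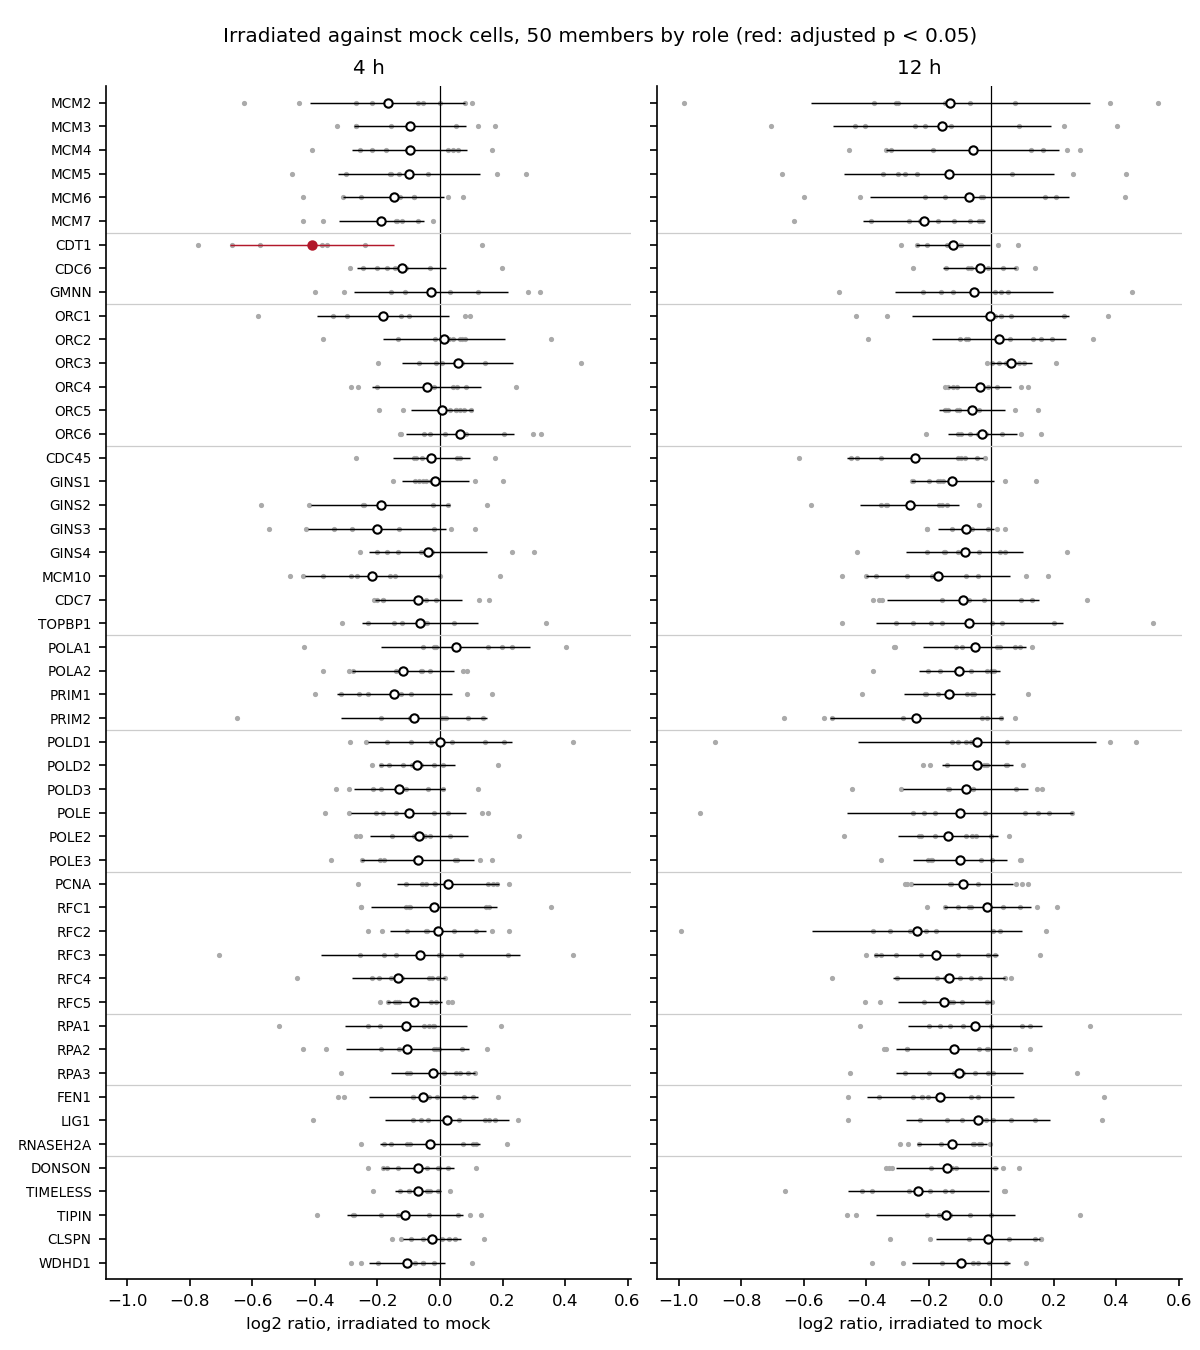
Log2 ratio of irradiated to mock cells (horizontal axis) of the 50 replication genes past the filter, grouped by role, at 4 h (left) and 12 h (right): small points are the 9 runs, large points their means, bars the SD, and red marks an adjusted p under 0.05. CDT1 at 4 h lies lowest at -0.41, and at 12 h 48 of 50 means lie below 0, a direction that turned for their median (0.01) when arrays were scaled by their median.

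Beyond CDT1, the differences between irradiated and mock cells were small. The median log2 ratio of the members was -0.0044 at 1 h, -0.07 at 4 h, -0.10 at 12 h and -0.03 at 24 h, with 25, 43, 48 and 31 of 50 below 0. The median of all probes tested was within 0.001 of 0 at each time, where quantile normalization holds it near 0. At 12 h the median of the members was below 0 in each of the 9 runs, at -0.25 to -0.0025. In Fe run 08A, at -0.24, it came from 1 Gy alone. But no member was called at that time, where 0.0205% of probes were called lower and 0.0739% higher. With arrays scaled by their median, the median of the members was 0.01, against 0.04 for all probes, with 34 of 50 members below that value for all probes. At an unadjusted p under 0.05 the 4 times had 3, 13, 17 and 2 of 50 members, and 828, 1243, 2158 and 1377 of all 24350 probes. No member was called at 1 or 24 h, where 0% and 0.0123% of probes were.

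The lowest log2 ratios at 12 h were those of GINS2 and CDC45, which are parts of the running helicase. GINS2 had a log2 signal of 9.92, 11.10 and 11.31 in irradiated cells, against 10.50, 11.24 and 11.51 in mock cells, a log2 ratio of -0.26 (SE 0.06, adjusted p = 0.062), below 0 in 9 of 9 runs. CDC45 had 7.83, 8.74 and 9.06 in irradiated cells, against 8.26, 9.02 and 9.16 in mock cells, a log2 ratio of -0.24 with an SE of 0.06 (adjusted p = 0.076), also below 0 in 9 of 9 runs. Neither passed the threshold, and the ranges of irradiated and mock cells overlap for most of their length. TIMELESS had 9.32, 9.56 and 9.85 in irradiated cells, against 9.40, 9.91 and 9.98 in mock cells, a log2 ratio of -0.23 (adjusted p = 0.094, 7 of 9 runs below 0), and without Fe run 08C it was -0.28 and called (adjusted p = 0.040). Without Si run 09B 1 member was called at 12 h as well. PRIM2 had a log2 ratio of -0.24 (0.13), RFC2 one of -0.24 (0.26) and MCM7 one of -0.21 (0.17), the last below 0 in 9 of 9 runs at 12 h and in 9 of 9 at 4 h. RFC3 (-0.18), RFC5 (-0.15), RNASEH2A (-0.13), PRIM1 (-0.13), POLE2 (-0.14) and RPA2 (-0.12) had adjusted p of 0.23 to 0.47.

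Genes with several probes did not give 1 value. For DONSON, which protects stalled forks, the brightest probe had a ratio of -0.14 on the log2 scale at 12 h (adjusted p = 0.14), and a second, dimmer one had -0.22 and was called (adjusted p = 0.040), a call lost under 17 of 22 alternatives. For MCM7 the second probe had -0.36 (adjusted p = 0.061), the lowest of all 24350 probes at 12 h, and a dimmer one 0.0016. For PCNA the brightest probe had -0.09 (0.75), and dimmer ones had -0.22 (0.083) and -0.05 (0.84). Dimmer probes past the filter had higher values than the brightest for RFC2 (-0.08 against -0.24) and PRIM2 (-0.14 against -0.24). The same held for RFC3 (0.01 and -0.12 against -0.18) and WDHD1 (-0.05 against -0.10). For ORC5 the dimmer probe past the filter was lower (-0.08 against -0.06). None of these dimmer probes of PCNA, RFC2, PRIM2, RFC3, WDHD1 and ORC5 was called.

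At 4 h no member other than CDT1 was called. GINS3 had a log2 ratio of -0.20 (SE 0.05, adjusted p = 0.14), MCM10 -0.22 (0.90), GINS2 -0.19 (0.61), MCM7 -0.19 (0.71), ORC1 -0.18 (0.71) and PRIM1 -0.15 (0.53). By role, all 6 MCM genes, all 3 loaders and geminin and all 8 activators were below 0 at 4 h, whereas 4 of the 6 ORC genes were above it. PCNA, whose transcript also rises through p53, had a log2 ratio of 0.03 (adjusted p = 0.99).

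Radiation types differed in which time had the lower values. But no probe and no member passed the test of a difference between them at any time or over all times (0% of probes). Each type entered as the mean of its own doses, 0.5 and 1 Gy for the ions and 1 and 3 Gy for γ-rays. The campaigns of the types were also partly different. The median log2 ratio of the members after Fe ions was -0.09, -0.12, -0.09 and -0.04 at 1, 4, 12 and 24 h. After Si ions it was 0.05, -0.11, -0.04 and -0.02, and after γ-rays 0.01, -0.01, -0.15 and 0.01. No member was called in any of these 12 sets of 3 runs, where 0.168% of probes were called at 12 h after Si ions, 0.0123% at 24 h after Fe ions, 0.00411% at 4 h after each type and at 1 h after γ-rays, and 0% in the other 6. At 12 h after γ-rays CDC45 had a log2 ratio of -0.41 (-0.45 to -0.35 over 3 runs), GINS2 of -0.39 (-0.58 to -0.25) and DONSON of -0.28 (-0.33 to -0.19), with adjusted p of 0.26, 0.27 and 0.26. RFC3 and GINS3 had the smallest unadjusted p of the difference between types at 4 h (0.0022 and 0.0030), with an adjusted p of 0.93 each.

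**Figure D5:**
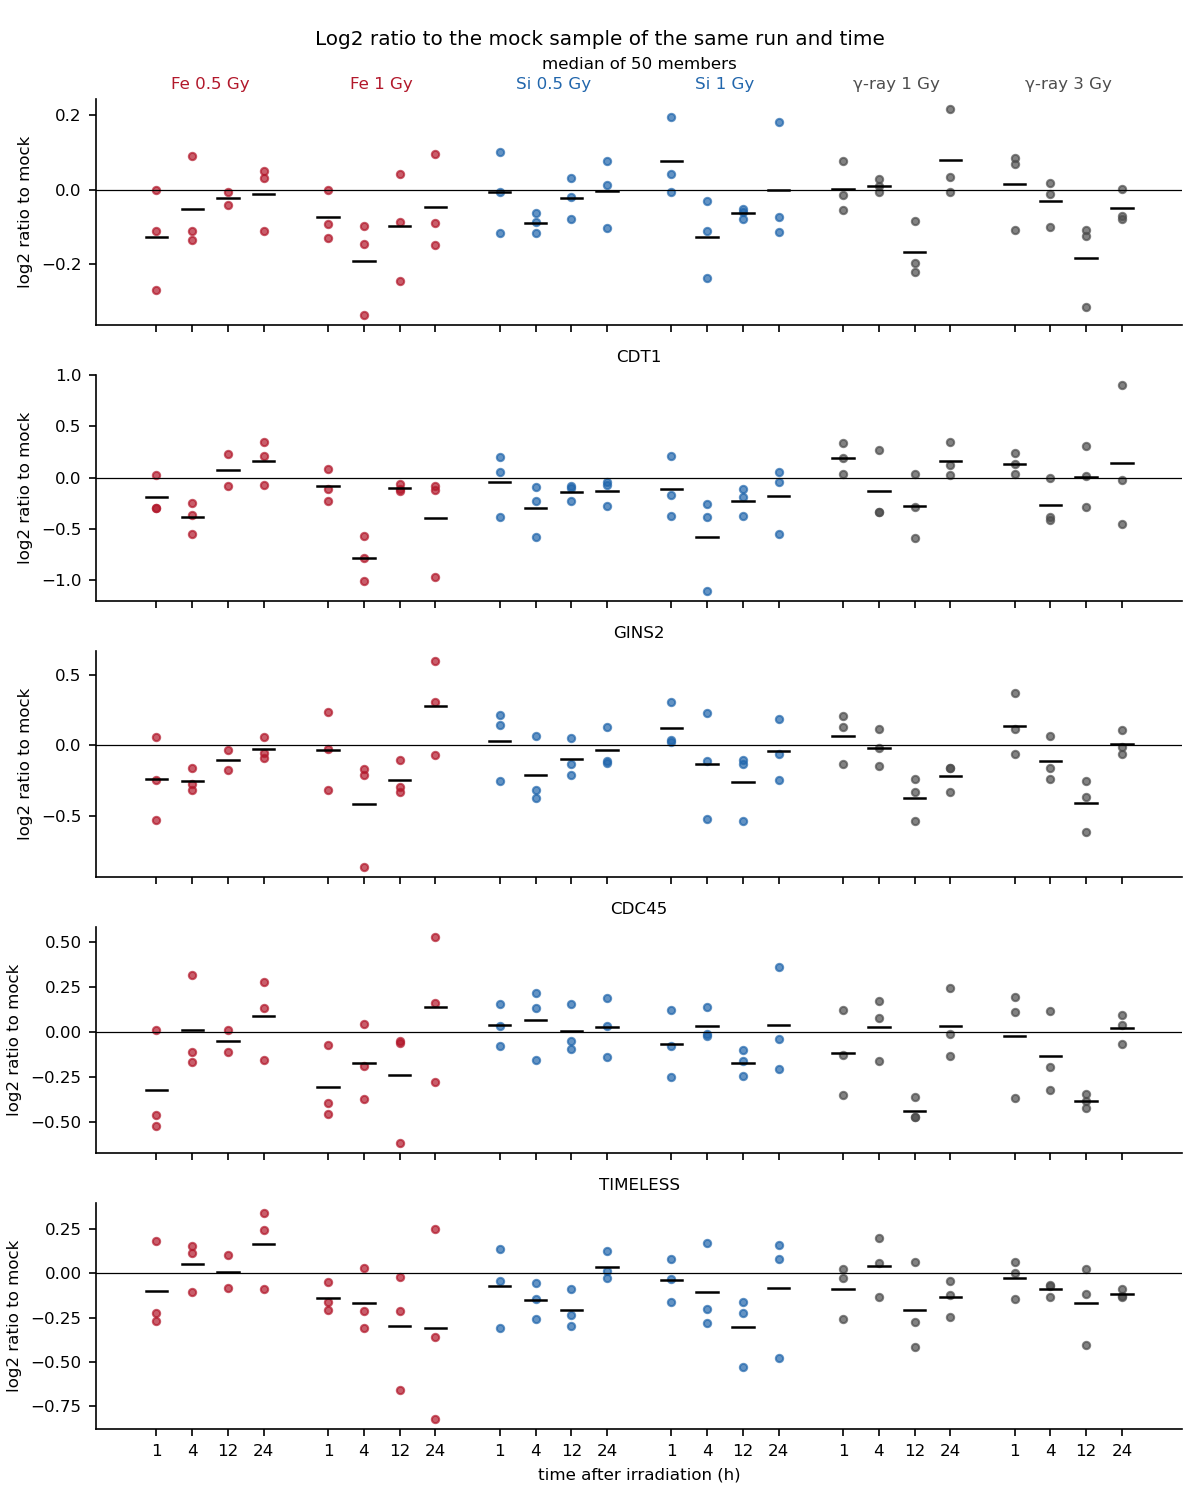
Log2 ratio of irradiated to mock cells of the same run and time (vertical axis, 1 scale per panel) by radiation type, dose in Gy and time in h (horizontal axis), for the median of the 50 replication genes past the filter and for CDT1, GINS2, CDC45 and TIMELESS, with 1 point per run and a dash at their mean. CDT1 at 4 h is below 0 in every run at both doses of Fe and Si ions, and the median of the replication genes lies between -0.34 and 0.22 in all samples.

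Each dose set alone against mock called 6 members in 4 of the 24 conditions. At 4 h after 1 Gy of Fe ions (0.0329% of probes called lower) ORC1 had log2 ratios of -0.86, -0.34 and -0.54 in the 3 runs, a mean of -0.58 (adjusted p = 0.022), and GINS3 one of -0.51 (0.034). At 12 h after 1 Gy of Si ions (2.27% called lower) PRIM2 had log2 ratios of -0.95, -0.07 and -0.71, a mean of -0.58 (0.0045), and RFC2 had -0.70, -0.07 and -0.82, a mean of -0.53 (0.043). At 24 h RFC1 had a mean of -0.50 after 1 Gy of Fe ions (0.012, 1.72% called lower), and RPA3 one of -0.60 after 1 Gy of γ-rays (0.015, 1.17% called lower). All 3 runs were below 0 in each of these 6 cases. But the values of PRIM2 and of RFC2 in the 3 Si runs differed widely, with run 09B near 0 for both. Those of RPA3 also differed, at -1.03 in γ-ray run 08C, -0.50 in 09A and -0.28 in 09C.

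The doses of a radiation type were compared within runs, as the higher minus the lower. Over the 4 times no member was called for any type, where 0% of probes differed for Fe ions, 0.653% for Si ions and 0.805% for γ-rays. One Fe run lacked the 0.5 Gy sample at 12 h, so that 35 differences entered. Time by time, 7 members were called at 24 h after Fe ions, where 5.68% of probes were: GMNN (0.70) and RPA3 (0.55) were higher at 1 than at 0.5 Gy, and POLE (-0.61), TOPBP1 (-0.57), MCM7 (-0.49), TIMELESS (-0.48) and RFC1 (-0.41) were lower. The adjusted p ran from 0.029 to 0.049, and for POLE, TOPBP1, MCM7 and TIMELESS 2 of 3 runs had the direction. This count was 0 without Fe 08C or γ 09A and 17 without Fe 09C, and 1 without Si 09A, 2 without Si 09B or γ 08C and 3 without Fe 08A. The share of all probes called was not counted without a run. At 12 h after Si ions (2.40% of probes) RFC2 was lower at 1 than at 0.5 Gy by 0.71, in 3 of 3 runs (adjusted p = 0.015), and it was not called without Si 09C, while 2 members were called without Si 09A. At 24 h after γ-rays (4.92%) RPA3 was higher at 3 than at 1 Gy by 0.64 (0.024) and PRIM2 differed by -0.45 (0.045), and neither was called without γ 08C. In that comparison 1 member was called without any one of Fe 08A, Si 09A, Si 09B or γ 09C.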

How the data were processed

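HBEC3KT cells were profiled on Illumina HumanWG-6 V2 BeadChips. The bead signals were deposited as mean intensities per probe, neither background-subtracted nor normalized. A value table, used as an alternative, holds intensities that the authors corrected for background (MBCB), normalized by quantiles and put on the log2 scale. Here the intensities went through normexp with an offset of 50, quantile normalization across the arrays and a log2 transform, after which technical replicates were averaged. Dim probes were set aside: the 24350 of 48701 whose mean exceeded the overall median (6.22) were tested. Each response subtracted the mock sample from the average of the doses within a run and time, and the 36 responses entered a limma model (version 3.58.1, R 4.3.3) with a coefficient for each of the 12 pairs of radiation and time and 24 residual degrees of freedom. For Fe run 08A at 12 h that average was the 1 Gy sample alone. Mock cells, and irradiated cells separately, were fitted by time with the run as a block. P-values were Benjamini-Hochberg adjusted over all probes tested and called under 0.05. The labels pair mock and irradiated samples by run, and in the 36 sets their deviations correlated at 0.46 to 0.89 (median 0.72). The tests were checked on simulated data. The alternatives changed the background correction, scaling, filter, prior, block, doses and threshold, and left out each run. The fit with the chip as a random block used single arrays, without averaged technical replicates, and campaign means used campaigns in place of runs. The named genes are members past the threshold (the 8 furthest from 0 in full where more passed), the member with the smallest p of each role and time, CDT1, DONSON and CDKN1A, and others were added after their values were seen. The members, their roles, the other lists and this rule were chosen with earlier results of these data known. The number of runs, not of arrays, limits the precision.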

Additional observations from a re-analysis of the deposited data

Results flagged for a closer look

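In 1 of the 54 sets of 9 runs looked at, 1 run stood apart from the others by Dixon's criterion, which chance meets in about 1 in 20 sets. It was the log2 ratio of RFC2, a subunit of the clamp loader, at 12 h, which was -0.99 in γ-ray run 09C and -0.38 in the next lowest run. In 2 of the 30 sets compared between radiation types, all runs of one type were above 0 and all of another below 0. The log2 ratio of CDT1 at 1 h had a mean of -0.14 after Fe ions and 0.16 after γ-rays, and that of RFC3, another clamp loader subunit, at 4 h had a mean of -0.13 after Fe ions and 0.24 after γ-rays. The difference between types was not called for either (limma, adjusted p = 1.00 and 0.93). Over all 50 members and 4 times, 14 of 200 sets had such opposite directions. The share of such sets over all probes was not counted, so CDT1 and RFC3 cannot be set apart from it.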

How the results depend on the processing

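Over the 26 settings the log2 values of the single genes followed kept their direction. Medians of the members near 0 did not all do so, and that at 12 h against mock turned with arrays scaled by their median. The fall of the members between 12 and 24 h in mock cells had a median of -0.85 to -0.57 in the 20 settings in which it was computed. With arrays scaled by their median, 9 members were called lower at that step in place of 40, the median at 12 h against mock was 0.0051, and 0 were called at 4 h against mock, between 1 and 4 h, between 4 and 12 h in mock cells and in any dose comparison. Mock and irradiated samples are paired by run, and with no replicate block 0 members were called in the same comparisons as under median scaling. With the chip as a random block (consensus correlation 0.18 and 0.28) 0 were called at 4 h against mock, 2 between 1 and 4 h and 1 at 24 against 1 h in mock cells.

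With the higher and the lower dose alone, the median of the members was -0.12 and -0.040 at 4 h against mock and -0.066 and 0.013 at 24 h, and the log2 ratio of CDT1 at 4 h was -0.55 and -0.27. The median at 1 h was -0.034 to 0.040 over all its alternatives. At 4 h against mock 0 members were called with the robust prior or the lower dose alone. At 12 h 1 was called with the higher dose alone and 3 at an adjusted p under 0.1. In mock cells between 1 and 4 h 2 were called with the authors' table, 0 without the filter, 2 with campaign means and 0 at an adjusted p under 0.01, and between 4 and 12 h 6 with campaign means and 0 at that threshold. At 24 against 1 h 1 was called with an offset of 16 and 4 with campaign means. Between doses of Fe ions at 24 h 0 were called with the authors' table, 1 without the filter and 1 with the robust prior, for Si ions at 12 h 0 with that table, and for γ-rays at 24 h 1 without the filter, 1 with the robust prior and 1 with the first technical replicate alone. The cause was not tested.

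Without each run in turn, the counts were 1 at 4 h and 0 to 1 at 12 h against mock, 0 to 9, 0 to 14 and 34 to 40 in mock cells between 1 and 4, 4 and 12, and 12 and 24 h, 0 to 2 between 1 and 24 h, and 16 to 35 in irradiated cells between 12 and 24 h. Between doses they were 0 to 3 over all times for Fe ions, 0 to 17 for Fe ions at 24 h, 0 to 2 for Si ions at 12 h and 0 to 3 for γ-rays at 24 h. Without a run, and under most other settings, the share of all probes called was not counted. Whether the counts moved with that share was therefore not tested. The irradiated time course, the response at 24 minus 12 h and the counts of dose differences at single times were added after seeing the data. A filter on detection p was not run, since the columns used here hold none, and the calls of single doses against mock were not recomputed.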
